A study of Triticum aestivum with 4 samples.

Results

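In the flag leaf of bread wheat, *Triticum aestivum* (cultivar Yangmai 16), 341 of 27473 measured probe sets lost signal with heat in progeny of unprimed parents, but lost at least 2-fold less in progeny of heat-primed parents. A probe set is a group of short probes on the array that together read 1 transcript or several similar ones. RNA of 4 groups was hybridized, each to 1 Affymetrix wheat array: progeny of non-primed plants without heat (NC) and with heat (NH), and progeny of primed plants without heat (PC) and with heat (PH). From day 10 after flowering (anthesis), heated progeny spent 6 days at 34 °C with nights of 30 °C, while unheated progeny had days of 26 °C with nights of 22 °C. Parents of PC and PH plants had been primed in 2 phases. Before flowering they had 2 days of 32 °C with nights of 28 °C at the 7-leaf stage and again at the 9-leaf stage. After flowering they had 7 days of 34 °C with nights of 30 °C, starting on day 10. NC and NH plants came from parents kept without priming. The number of plants behind each array is not given in the sources used here.

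Members were chosen on the measured values themselves. Of 61115 probe sets, those above an intensity of 12.3 (the median of all values) on all 4 arrays count as measured. A member had a log2 difference NH minus NC of at most -1, PH minus PC below 1, and a difference of these heat changes, (PH minus PC) minus (NH minus NC), of at least 1. They make up 1.24% of the measured probe sets. A difference of at least 1 was found at 2.3% of the measured probe sets, and 10.1% were 2-fold lower in NH than in NC; nothing is read from these shares, since the rule used both contrasts. With 1 array per group there is no replicate error and no test, and all values below describe these 4 arrays. Just inside the threshold, 5 members had differences from 1.00015 to 1.00761, and the 5 probe sets just outside it from 0.996097 to 0.998961.

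Of the 6 member genes with a functional name, 4 encode enzymes of the Calvin cycle or of triose phosphate metabolism. In the Calvin cycle of the chloroplast, carbon dioxide is fixed onto ribulose bisphosphate by Rubisco. The product is phosphorylated and reduced to triose phosphate, and the acceptor is then regenerated by enzymes that include fructose bisphosphatase and phosphoribulokinase. In a cereal, the flag leaf is a main source of the sugar that fills the grain, and heat after anthesis is known to hasten the loss of its photosynthetic capacity.

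The labelled tissue was checked on marker genes. The 6 leaf markers (rbcl, FBP, PRK, petC, PsbO and PsbP) were above the floor on all arrays. Their summed intensity ran from 25807 on NH to 45283 on PC. FBP and PRK are themselves members, and rbcl made up 15575 of the sum on NH. Of 7 grain genes the sum lay between 426 on NC and 1355 on NH, with 671 on PH, and the avenin-like genes avnla (659 on NH and 72.9 on PH) and avnlb (571 and 518) made up most of it on the heated arrays. None was at 0; Serpin-Z2A had the lowest value, 4.09 on PC. The anther gene raftin1a was below the floor throughout, and raftin1b stood between 13.4 and 16.8. Poly-A controls, bacterial RNAs spiked in before labelling, had a median NH to NC ratio of 1.87 and a median PH to NH ratio of 0.557 over 36 probe sets. The ratio of 3' to 5' signal of ubiquitin was 0.645 (NC), 0.929 (NH), 0.750 (PC) and 0.992 (PH). The part of these differences in the results below was not tested. In whole leaves, fewer cells of a type and less RNA per cell cannot be told apart.

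Most members still fell with heat after parental priming, but less. The median heat change was -2.56 on the log2 scale in unprimed progeny and -1.32 in primed progeny, and the median difference of the heat changes was 1.25. In linear terms the median member kept 16.9% of its NC level on NH and 40.1% of its PC level on PH. Of the 341 members, 206 (60.4%) were also 2-fold lower in PH than in PC. Another 106 were lower by less than 2-fold, and 29 were higher. For reference, 9.26% of all measured probe sets were 2-fold lower in PH than in PC. Of the 2444 other probe sets that fell 2-fold in NH, 1817 (74.3%) were. The rule required a weaker fall in PH, so nothing is read from these shares. Without heat, members were brighter than the others. NC, though, is among the values the rule used, and a deeper fall to a level above the floor needs a higher NC. The members' median intensity on NC was 495, against 228 for the 2444 other probe sets that fell 2-fold in NH and 61.1 for all measured ones.

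**Figure D1:**
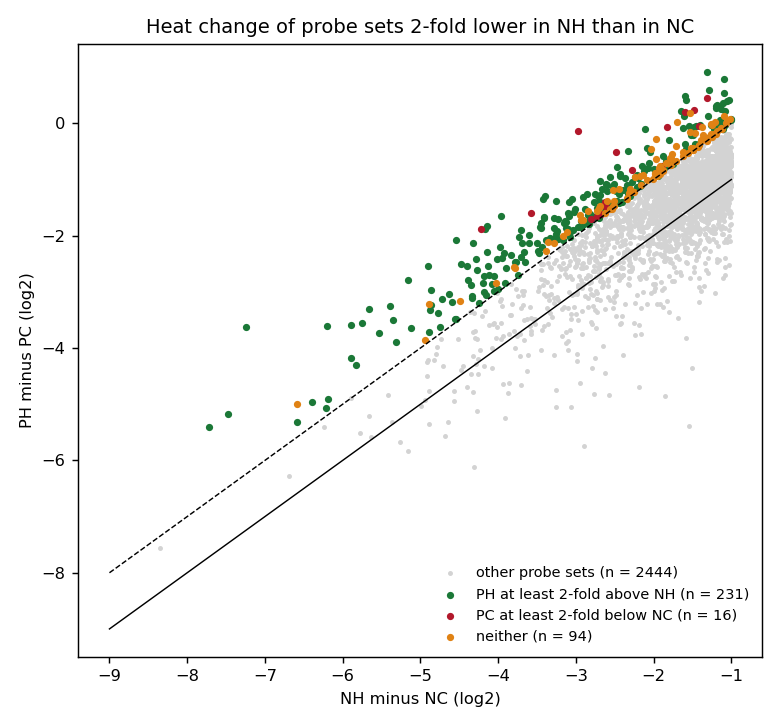
Heat change of each probe set at least 2-fold lower in NH than in NC, in unprimed progeny (horizontal axis, NH minus NC, log2) and primed progeny (vertical axis, PH minus PC, log2). The solid line marks equal changes and the dashed line a difference of 1. The 341 members lie on or above the dashed line, coloured by the priming comparison that passed 2-fold, and the 2444 others are grey.

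The difference of the heat changes equals (PH minus NH) minus (PC minus NC), so a member can arise from a higher level under heat, from a lower level without heat, or from some of each. A higher level under heat was the most frequent of these by count, and nothing more is read from the split. Of the members, 231 were at least 2-fold higher in PH than in NH, 16 were at least 2-fold lower in PC than in NC, 0 were both, and 94 passed 2-fold in neither comparison. The 16 depend on the floor. There were 60 among 488 members with the floor at the 25th percentile of intensity. With low values raised to the floor there were 62 among 421. Over all measured probe sets 2.32% passed 2-fold upward in PH against NH and 0.288% 2-fold lower in PC than in NC. These shares are given for reference, since both comparisons follow from the values that the rule used.

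**Figure D2:**
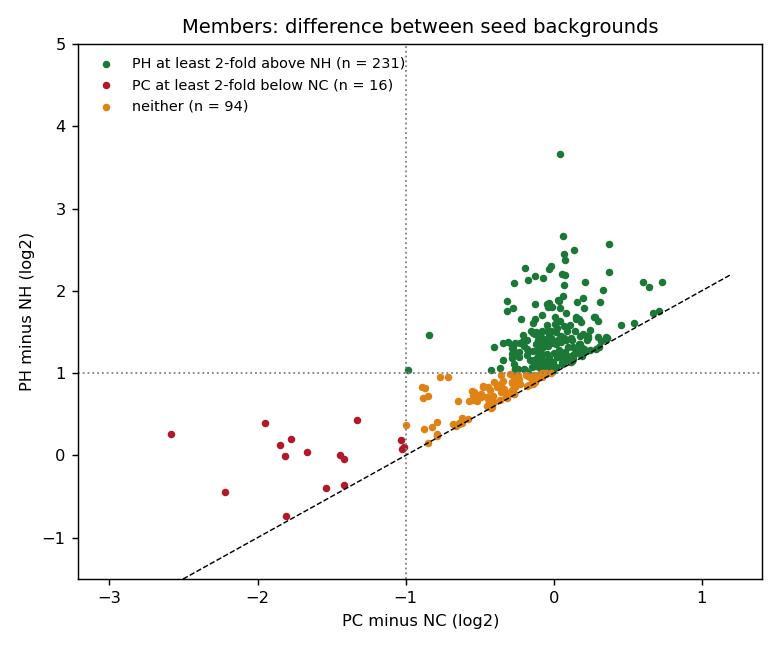
The 341 members by their difference between seed backgrounds without heat (horizontal axis, PC minus NC, log2) and with heat (vertical axis, PH minus NH, log2). Dotted lines mark 2-fold, and the dashed line is the rule's limit, a difference of 1. The 231 members higher in PH cluster around 0 on the horizontal axis.

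In the 231 members that were higher in PH than in NH, the seed backgrounds were alike without heat. Their median PC minus NC was -0.01 on the log2 scale, and 224 of them (97.0%) were within 1.5-fold, a share near the 93.0% of the 2444 other probe sets that fell in NH. Median intensities were 823 (NC), 65.3 (NH), 804 (PC) and 168 (PH). The median PH minus NH was 1.35, and 58 members were at least 3-fold and 22 at least 4-fold higher in PH. PH nevertheless stayed below PC in most: 164 were 2-fold lower, 47 lower by less, and 20 higher.

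Among the Calvin cycle and triose phosphate enzymes, 4 of the 5 measured genes with a name had a member probe set, and all 4 belonged to the group that was higher in PH than in NH. Over all measured genes with a symbol, 14 of 540 had a member. The list was drawn up with earlier results of these data known. FBP, fructose bisphosphatase, stood at 1692 (NC), 112 (NH), 1557 (PC) and 316 (PH). It was thus 15.1-fold lower with heat in unprimed and 4.93-fold lower in primed progeny, and 6.60% and 20.3% of the unheated level was left. PRK, phosphoribulokinase, which regenerates the carbon dioxide acceptor, had 5887, 1275, 6877 and 3493 on NC, NH, PC and PH. PRK was the brightest named member, and the share of its unheated level left with heat was 21.7% in unprimed and 50.8% in primed progeny, so in the primed the fall did not reach 2-fold.

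Pgk-1, phosphoglycerate kinase, which uses ATP to phosphorylate phosphoglycerate in the Calvin cycle and works in the reverse direction in glycolysis, had 3247 (NC), 292 (NH), 3085 (PC) and 627 (PH). GAPN encodes the glyceraldehyde-3-phosphate dehydrogenase that does not phosphorylate its product; it oxidizes triose phosphate in the cytosol and yields NADPH. It had 1690.2 (NC), 36.6 (NH), 1598 (PC) and 119.8 (PH). Both enzymes were far lower on each heated array, GAPN with 2.16% left in NH and 7.49% in PH, and Pgk-1 with 9.0% and 20.3%. The PH level was 3.27 times the NH level for GAPN and 2.14 times for Pgk-1.

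The remaining gene of this list, rbcl, the large subunit of Rubisco, had no member probe set. Its brightest probe set had 16201 (NC), 15575 (NH), 16875 (PC) and 16320 (PH), at the top of the measured scale. The list's median difference of the heat changes was 1.23, against -0.01 over all measured probe sets; since 4 of its 5 genes hold members chosen on this value, nothing is read from the median.

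**Figure D3:**
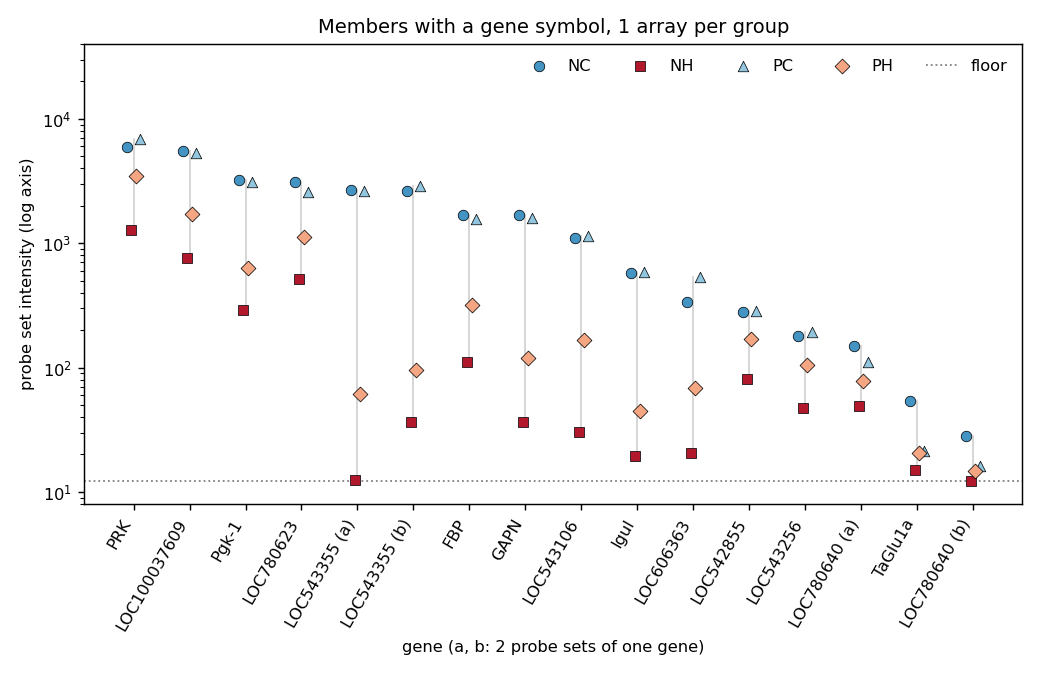
Intensity (vertical log axis) of the 16 member probe sets with a gene symbol on NC, NH, PC and PH, 1 array each, ordered by their level on NC. The grey lines span the arrays and the dotted line is the floor of 12.3; PH lies between NH and PC in all 16, and close to PC for TaGlu1a and the dimmer LOC780640 probe set.

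The list of photosystem, cytochrome b6/f and thioredoxin proteins held 0 members, and petC and Trx-M came close to the threshold. The Rieske protein gene petC, of the cytochrome b6/f complex, had 7853 (NC), 2339 (NH), 8082 (PC) and 4623 (PH), and its difference of the heat changes was 0.94. Trx-M, thioredoxin m, which carries reducing power from the light reactions to chloroplast enzymes, had 3791, 666, 3899 and 1300.1, with a difference of 0.92. PsbP and PsbO, subunits of the complex that splits water at photosystem II, had differences of 0.58 and 0.31. All 4 thus had a difference above 0, with a median of 0.75, but below 2-fold. Over all measured probe sets, 13436 of 27473 had a difference above 0. Of those that fell 2-fold in NH from at least 1000 on NC, 83.7% did. Among the 4, PsbP and PsbO did not fall 2-fold in NH, and nothing is read from the count.

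Outside both of these lists, lgul and TaGlu1a are the member genes with a functional name. Of them, lgul, glyoxalase I, detoxifies methylglyoxal with glutathione. Its member probe set read 578 (NC), 19.4 (NH), 586 (PC) and 44.6 (PH). A second probe set of the same gene, dimmer without heat and brighter with it, read 311, 94.9, 452 and 106, with a difference of -0.38. The probe sets of lgul therefore disagree on whether the loss was weaker after priming. TaGlu1a, a beta-glucosidase that in wheat releases defence compounds from their sugar conjugates, had 53.8 (NC), 15.1 (NH), 21.4 (PC) and 20.4 (PH). Here most of the difference of 1.76 lay in the unheated arrays: PC minus NC was -1.33 and PH minus NH 0.43 on the log2 scale.

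The remaining genes with a symbol are known by a locus symbol alone. LOC543106 had 1091 (NC), 30.5 (NH), 1144 (PC) and 166 (PH), and its PH level was 5.44 times that on NH, the highest ratio of any member with a symbol. A second LOC543106 probe set lay below the floor on both heated arrays. LOC543355 was read by 2 member probe sets. The first had 2653, 12.5, 2619.8 and 61.7, and the second 2648, 36.4, 2887 and 96.2. Among the members with a symbol, LOC543355 lost most: 0.473% and 1.37% of the NC level was left on NH, and 2.35% and 3.33% of the PC level on PH. On NH the first probe set lay next to the floor of 12.3. With the floor added as an offset, its difference of the heat changes was 1.59 instead of 2.32. LOC780623 had 3110.4, 515, 2578 and 1112. LOC100037609 had 5462, 761, 5348 and 1726, while 2 other probe sets of that gene had differences of 0.04 and 0.17. For LOC606363 the member read 339, 20.4, 538 and 67.8, whereas another probe set had a difference of -0.62. So for LOC606363, as for lgul, the probe sets point in opposite directions. LOC542855, at 279.9, 81.3, 283 and 170.4, and LOC543256, at 180.5, 47.2, 195 and 105, were dimmer and had differences of 1.05 and 1.04, just past the threshold; with each array scaled to a common median, LOC543256 had 0.999. LOC780640 had 150.1, 48.7, 111 and 78.0 on one member probe set, with the other at 12.3 to 27.9, close to the floor. It belongs to the members past 2-fold in neither priming comparison.

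Of the 341 members, 16 probe sets of 14 genes had a symbol, 4.69% against 2.91% of all measured probe sets and 4.54% of the others that fell in NH. The members without a symbol include the widest differences. The probe set Ta.447.2.S1_a_at had 3574 (NC), 23.6 (NH), 3681 (PC) and 299 (PH), and Ta.447.1.S1_x_at, of the same transcript cluster, 1952, 26.4, 2042 and 168. Their PH levels were 12.7 and 6.36 times those on NH. Affymetrix gave probe sets of similar transcripts a shared cluster number, and 5 clusters held 3 or more members. All 3 measured probe sets of cluster Ta.27761 were members, with 3983 to 7969 (NC), 171 to 452 (NH), 3479 to 7307 (PC) and 826 to 2049 (PH). In cluster Ta.20639, 5 of 6 measured probe sets were members, and the sixth had a difference of 0.98. In cluster Ta.27751, by contrast, 3 of 9 were members: 1 of the other probe sets rose with heat by 5.77 and 5.48 on the log2 scale in unprimed and primed progeny, and another had a difference of -0.86. Clusters Ta.27761 and Ta.20639, along with Ta.27751, Ta.9308 and Ta.981, were picked out after their values were seen, and probe sets within a cluster may read the same transcripts.

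The 16 members that were lower in PC than in NC showed another pattern. Their medians were 122 (NC), 19.2 (NH), 29.9 (PC) and 20.9 (PH): the 2 heated arrays were alike, with a median PH minus NH of 0.05, and the seed backgrounds differed without heat. Most were dim on NH, PC and PH, and 9 of the 16 were within 2-fold of the floor on NH. On NC their median was above the 61.1 of all measured probe sets, and 2 of them exceeded 1000. Ta.5861.1.S1_x_at had 140.1 (NC), 17.8 (NH), 23.4 (PC) and 21.4 (PH), and Ta.8582.1.S1_at had 104.7, 42.0, 22.5 and 30.8. In both, NC was the array that stood apart.

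In the 94 members past 2-fold in neither comparison, both parts contributed. As follows from the rule, all 94 were lower in PC than in NC, with a median of -0.41, and higher in PH than in NH, with a median of 0.77. Their median difference of the heat changes was 1.11, nearer to the threshold than the 1.37 of the 231 members higher in PH. The split keeps both parts below 2-fold in the 94 and so caps their difference, and nothing is read from this contrast.

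The share of members rose with the size of the loss in unprimed progeny. Among probe sets with a fall in NH between 1 and 2 on the log2 scale, 111 of 1882 were members (5.90%), and among those that fell by 4 or more, 62 of 119 (52.1%). The weaker losses in primed progeny were thus spread over shallow and deep falls, and made up 52.1% of the deepest. Of members with a fall of 4 or more, the median level left was 4.09% on NH and 11.3% on PH. By construction, a wider fall leaves more room for a difference of 1, and this holds for the mirror-image rule too, applied to probe sets that fell in PH and fell less in NH. It was met by 74 of 1829 (4.05%) for a fall in PH between 1 and 2 and by 19 of 76 (25.0%) for one of 4 or more.

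**Figure D4:**
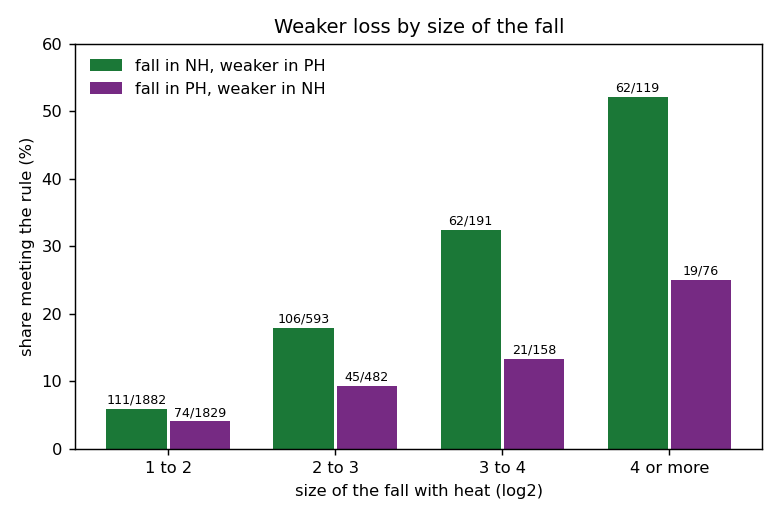
Share of probe sets (vertical axis, %) whose ratio of heated to unheated signal was at least 2-fold higher in the other seed background. They are grouped by the size of the loss (horizontal axis, log2). Green bars are falls in NH that were weaker in PH (the members), purple bars falls in PH that were weaker in NH; the counts stand above the bars, from 111 of 1882 to 62 of 119 in green.

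In all, 341 of the 2785 probe sets that fell 2-fold in NH met the rule (12.2%), and 159 of the 2545 that fell 2-fold in PH met its mirror image (6.25%). For rises, 292 of 3172 in NH were weaker in PH (9.21%), and 132 of 2745 in PH were weaker in NH (4.81%); 11.5% and 9.99% of measured probe sets were 2-fold higher in NH and in PH than without heat. In each set, part of the probe sets differed 2-fold between the heated arrays. PH was 2-fold above NH in 231 of 341 for the weaker loss after priming and in 86 of 132 (65.2%) for the weaker rise in unprimed progeny. It was 2-fold below NH in 124 of 292 (42.5%) for the weaker rise after priming and in 75 of 159 (47.2%) for the weaker loss in unprimed progeny, against 1.2% of all measured probe sets. The share in the members, 67.7%, was thus close to that of the weaker rise in unprimed progeny. No test stands behind these counts, which share all 4 arrays.

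Other probe sets of the members' transcript clusters were not chosen by the rule, though they share the arrays. Beside the members, 180 measured probe sets lay in 99 such clusters. Of these, 69 were 2-fold lower in NH than in NC (38.3%, against 9.01% of all non-members). Those 69 had a median difference of the heat changes of 0.63, against 0.27 for all 2444 non-members that fell 2-fold in NH. Over all 180, the difference was above 0 in 125 (69.4%, against 48.3% of all non-members), and 6 had at least 1. Among the 69 that fell 2-fold in NH, the difference was above 0 in 64 (92.8%), against 69.6% of all non-members that fell 2-fold in NH. Neighbours may read the members' own transcripts, so their values are not independent of the members'. They are also limited from above, as a neighbour that met the rule would itself be a member, and 40 clusters held 2 or more members.

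The other gene lists gave a varied picture. Of 7 measured tubulins and profilin, 0 were members, and their median heat change was -1.05 in unprimed and -1.51 in primed progeny, with a median difference of -0.38. The beta-tubulin gene tubb3 had 793 (NC), 309 (NH), 774 (PC) and 164 (PH). Of the 4 measured genes in the list named methyl transfer (PIMT, APT1, TaCOMT1 and SAHH), 0 were members, with a median of -0.63. SAHH, S-adenosylhomocysteine hydrolase, had 5532, 2267, 4300.1 and 1012. The 5 histones and high mobility group genes had a median of -0.02 and 0 members. Starch and fructan genes had -0.01 with 0 members of 4. In this list AGA.1, a subunit of ADP-glucose pyrophosphorylase, had 966, 117, 1128 and 230.4, a difference of 0.76. By contrast, 1-FEHw2 had 214, 689, 353 and 518, a difference of -1.13, so it rose less with heat in primed progeny. Of 3 redox and detoxification genes 1, lgul, had a member (median 0.34, from the probe set of each gene with the highest mean log2 intensity), and of 2 defence genes 1, TaGlu1a. Of 2 transport and cell wall genes, TaLTP3, a lipid transfer protein, had 0.91, and neither was a member. Translation had 0 of 3 and a median of -0.19; for heat shock and chaperones, 1 gene was measured, FKBP70, with -0.20. For chlorophyll synthesis no gene matched by name. Over all measured genes with a symbol, 13 had a difference of at least 1 and 22 had one of at most -1. The non-members tubb3, SAHH, AGA.1, 1-FEHw2 and TaLTP3 were picked out after their values were seen.

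**Figure D5:**
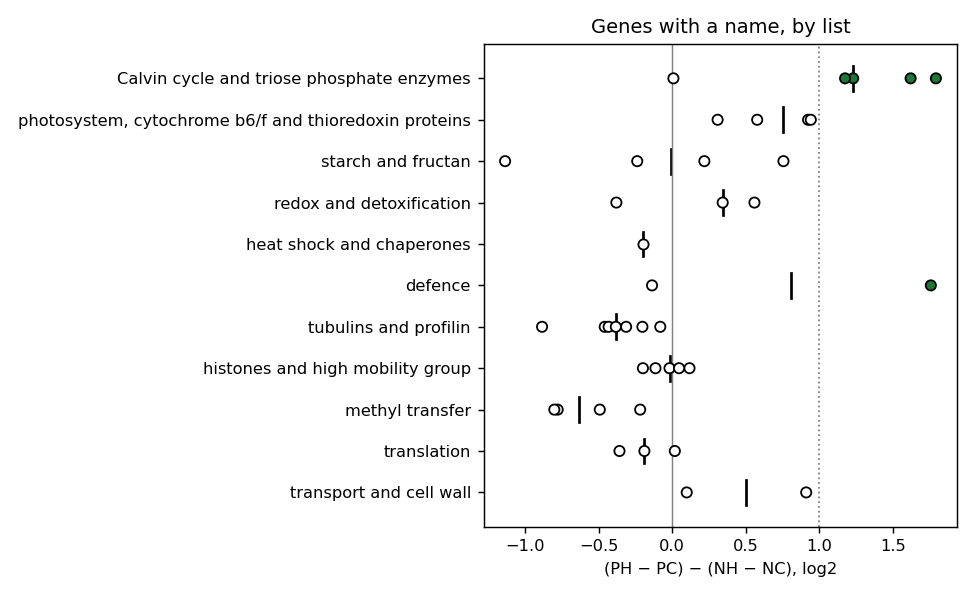
Difference of the heat changes (horizontal axis, log2) of each measured gene with a name, by list, read from its measured probe set with the highest mean log2 intensity. Filled points are member probe sets, short bars are list medians and the dotted line is the threshold of 1. The 4 members in the list of Calvin cycle and triose phosphate enzymes lie between 1.17 and 1.79; lgul appears at -0.38 since its member has the lower mean log2 intensity of its probe sets.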

How the data were processed

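Total RNA, 6 µg per sample, became biotin-labelled cRNA, per the labels' protocols, for Affymetrix wheat arrays; the labels also name Cy3, and which holds is not settled. The deposited values are intensity per probe set on a linear scale, made with MAS5 per the submitters' processing notes. Its version, the scaling between arrays and the detection calls are not stated in the sources used here. From 4.34% to 4.55% of values per array lie on a common grid with a step of 0.25 (within 0.0001; 0.08% if evenly spread), and whether the arrays were normalized together is not settled. Of 61290 probe sets, 175 controls were left out. The floor was the median (50th percentile) of the rest; differences are of log2 intensity.

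The members and gene lists were chosen with earlier results of these data known. All 16 members with a symbol are named, and 4 without one, with the largest difference or the lowest PC minus NC; other probe sets and genes named were chosen after their values were seen, as said beside them. Of 771 symbols in the platform annotation, 770 matched the gene table of IWGSC CS RefSeq v2.1, from which names alone were taken; GAPN did not match. A gene stands in a list by its measured probe set with the highest mean log2 intensity. With 1 array per group no statistical test was run, and the number of arrays limits the precision. The script that applies the rule was tested on simulated data with members placed in it. Alternatives were scaling by the median, quantile normalization, a floor at the 25th or the 75th percentile, an offset, low values raised to the floor, leaving out probe sets with the suffixes a, s and x, whose probes may match more than 1 transcript, and 3-fold. Scripts ran in Python 3.11.15 with pandas 2.3.3, numpy 2.4.6 and matplotlib 3.10.9.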

Additional observations from a re-analysis of the deposited data

Results flagged for a closer look

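In 29 of the 341 members the heat changes had opposite signs, with a fall of at least 2-fold in unprimed progeny and a value above 0 in primed progeny; the difference was not tested. Their PH minus PC ran from 0.02 to 0.92 on the log2 scale with a median of 0.23, and 4 reached 0.5. Most were dim: 20 had under 100 on NC, and the brightest had 869. None of the 29 has a gene symbol. The widest, Ta.13560.1.A1_at, chosen once its values were known, read 32.0 (NC), 12.9 (NH), 30.5 (PC) and 57.6 (PH).

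The poly-A controls, outside all comparisons of wheat transcripts, had a median NH to NC ratio of 1.87 and a median PH to PC ratio of 0.812.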

How the results depend on the processing

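The 341 members were 302 with median scaling (298 of them shared) and 373 with quantile normalization (334 shared), and under both the split by priming comparison stayed within 1.5 times. With the floor at the 75th percentile (53.6) there were 166 members, 121 higher in PH than in NH, 3 lower in PC than in NC, 42 in neither and 119 also lower in PH than in PC. With the floor at the 25th percentile (4.20) there were 488 members, of which 60 were lower in PC and 144 in neither. With low values raised to the floor there were 421, of which 62 were lower in PC. With the floor added as an offset, which shrinks differences of dim probe sets, there were 215 members, of which 146 were higher in PH, 9 lower in PC and 60 in neither. Without the suffixes a, s and x, 220 were left, with 147 higher in PH, 62 in neither and 129 also lower in PH than in PC. At 3-fold there were 66, with 57 higher in PH, 6 lower in PC, 3 in neither and 51 also lower in PH than in PC, a median difference of 1.83 and a median heat change in primed progeny of -1.88. The sets of 166, 215, 220 and 66 are smaller by construction, with fewer probe sets considered, shrunken differences or a stricter rule.

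Of the 16 named member probe sets, 10 lay below the 75th percentile floor on some array, GAPN and LOC543106 among them. With the offset 6 missed the threshold, lgul (0.82) and LOC606363 (0.65) among them, and at 3-fold 11 did, PRK and Pgk-1 among them. TaGlu1a (1.22), GAPN (1.51) and LOC543106 (1.99) had smaller differences with the offset but stayed past the threshold. No paired analysis was possible because each group has 1 array. Dim members, with 57 of 341 within 1.5-fold of the floor on NH, are the least certain.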
